A study of Bos taurus with 6 samples.

Results

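The genes described here encode secreted Wnt ligands (WNT5A and WNT5B), a Wnt receptor (FZD1), secreted antagonists (SFRP1, SFRP2, DKK1, DKK2 and DKK3), a nuclear factor of the pathway (LEF1) and a feedback target (AXIN2). They were chosen by name, as the rows of the deposited expression table that carry these symbols, and they made up 10 of the 17663 genes in the table. RNA was sequenced from bEFs, fibroblasts grown from the soft tissue of the trunk of bovine fetuses of 50–60 days. FT cells were taken from 3 fetuses with an exogenous fat-1 gene, whose enzyme makes n-3 PUFA out of n-6 PUFA. WT cells were taken from 3 fetuses of wild-type Luxi cattle. There was 1 poly(A) library per fetus, called FT_1 to FT_3 in one group and WT_1 to WT_3 in the other. With n = 3 in each group, the p-values measure the spread between these libraries. The breed of the FT fetuses and the promoter of the transgene are not given in the sources used here.

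Wnt ligands are secreted, lipid-modified glycoproteins that bind Frizzled receptors on the cell surface. In the canonical branch the receptor, together with an LRP co-receptor, stops a destruction complex from degrading β-catenin, which then activates target genes with TCF/LEF factors, while other branches act on cell polarity and calcium. SFRP proteins bind the ligands outside the cell, several DKK proteins bind the LRP co-receptor, and mesenchymal cells such as fibroblasts are a known source of both ligands and antagonists.

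The total count was 63366834, 48167642 and 54204446 in FT_1 to FT_3, and it was 69777641, 51310741 and 54271927 in WT_1 to WT_3. FT_1 stood apart from the other libraries of its group. The biological coefficient of variation measures how far a gene's level varies, relative to its mean, once counting noise is taken off. It was 56.9% for FT_1 with FT_2 and 57.6% for FT_1 with FT_3, whereas FT_2 with FT_3 gave 8.25% and the pairs of WT libraries gave 9.99–13.4%. Of the 13482 genes tested, 11.95% were more than 1 log2 unit higher in FT_1 than the mean of FT_2 and FT_3, and 10.9% were more than 1 log2 unit lower. For this reason the fold changes of the Wnt genes and of the genes called from the pathway lists, and the counts and medians of these lists, are given with and without FT_1, and levels are given by library. Coordinates are those of the deposited table, whose genome build is not stated.

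Markers of cell types were compared as FPKM, fragments scaled by gene length and library total, summed over each list. The 12 fibroblast markers summed to 7680, 19146 and 18956 in FT_1 to FT_3, against 19301, 18602 and 18879 in WT_1 to WT_3. VIM was the most abundant of them in FT_3 and the WT libraries, and DCN was in FT_1 and FT_2. All 12 had counts in every library, and the sum was lowest in FT_1. The sums of the other libraries were near each other, but their members were not. VIM was at 1244, 3850 and 4171 FPKM in FT_1 to FT_3 against 7312–8178 in WT libraries, and LUM was at 551, 2759 and 2559 against 1117–1224. PDGFRA and THY1 were highest in FT_1, and of the 12 markers 2 were called higher and 0 lower in the edgeR test described below, beside 20.1% and 18.9% of all genes, and 7 higher and 1 lower (VIM) without FT_1, beside 30.6% and 31.5%. The 9 epithelial markers summed to 457, 16.2 and 15.8 in FT_1 to FT_3, against 10.4, 8.05 and 14.2 in WT_1 to WT_3, and 8 of the 9 were highest in FT_1. CDH1 made up nearly all of the WT sums (10.0, 7.83 and 13.9) and was at 7.11 and 8.41 in FT_2 and FT_3. CLDN4 was at 3.39–3.82 in FT libraries against 0.09–0.33, and KRT5 had 319 and 228 counts in FT_2 and FT_3. KRT5, a keratin of basal epithelium, was the most abundant of them with 172 FPKM in FT_1, and EPCAM, KRT5, KRT8, KRT14 and KRT18 were at 0 in all WT libraries. The 6 mesothelial markers in the table, led by MSLN, summed to 301, 46.4 and 47.1 in FT_1 to FT_3, against 2.35–3.48 in the WT libraries, where KRT8 and KRT18 were at 0. MSLN alone was at 199, 44.9 and 46.2 in FT_1 to FT_3, and KRT8, KRT18 and KRT19 are in the epithelial sum as well. WT1 was at 0 in FT libraries against 0.03–0.05 in WT libraries, and UPK3B was at 1.03, 0.10 and 0.09 in FT_1 to FT_3 against 0.20–0.25. Markers of smooth muscle and myofibroblasts, led by ACTA2 (by TAGLN in WT_2), summed to 3393, 4606 and 4450 in FT_1 to FT_3, against 1496–1648 in the WT libraries. Of these 8 markers 7 rose in FT cells, beside 20.1% of all genes, and 8 without FT_1, beside 30.6%. DES, among the 7, had 12, 0 and 0 counts in WT_1 to WT_3, so that it could hardly have been called lower. Adipocyte markers were led by FABP4 in WT libraries, by PPARG in FT_1 and by LPL in FT_2 and FT_3. Their sums were 4.98, 14.3 and 15.6 in FT_1 to FT_3 against 140–156 in the WT libraries. FABP4 made up most of this gap, with 0.08, 4.67 and 5.95 against 128–143. Of the 5 tested 2 fell (FABP4 and CIDEC), beside 18.9% of all genes, or 3 without FT_1 (with PPARG), beside 31.5%. CIDEC had 8, 0 and 0 counts in FT_1 to FT_3. It passed the filter on low counts of the edgeR test through the WT libraries, so that it could hardly have been called higher. The call of FABP4 was lost without FT_2 or any one WT library (edgeR adjusted p of 0.0536 to 0.0594). PLIN1 was at 1.31–1.49 in FT libraries against 1.23–1.27, LPL overlapped between groups and PPARG was highest in FT_1. DCN, TAGLN and the markers named here that are neither the most abundant of their list nor at 0 in WT libraries were named after their values were seen. The part of these marker differences in the results on Wnt genes was not tested. In bulk samples fewer cells of a type and less RNA per cell cannot be told apart.

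FT and WT cells were compared with edgeR's quasi-likelihood test on the raw counts, and a gene was called at a Benjamini-Hochberg adjusted p under 0.05 over all 13482 genes tested. Among these, 2714 genes (20.1%) were higher and 2547 (18.9%) were lower in FT cells. With libraries scaled by their totals only, in place of TMM, the split was 2049 higher and 3399 lower. Of the 10 Wnt genes 9 passed the filter on low counts, all but DKK1, and 6 of the 9 (WNT5A, WNT5B, FZD1, SFRP1, DKK2 and DKK3) rose in FT cells beside the background of 20.1%. None of the 9 was lower, beside the background of 18.9%, and none had a negative fold change in edgeR, DESeq2 or limma, so that the count of lower genes was 0 at an unadjusted p under 0.05 as well. Without FT_1, 8 of the 9 were called higher, beside 30.6% of the 13765 genes then tested, and 0 were called lower, beside 31.5%. LEF1 reached the level of the filter on low counts in FT libraries only, so that it could hardly have been called lower. Without LEF1 the counts called higher were 6 of 8, and 7 of 8 without FT_1. Of all genes that reached the level in both groups, 19.9% and 31% were called higher in these fits. Without WT_1 the number called higher was 3, beside 11% of all genes then tested, and without WT_2 or without WT_3 it was 4, beside 11.6% and 13%. In these fits 0 were called lower, beside 11.1%, 11.3% and 12.6%. The groups were without overlap in FPKM in 8 of the 9 genes, all but AXIN2, and the FT values were the higher ones in all 8. Of all tested genes 21.8% lay apart in that direction and 36.9% lay apart with FT cells lower. LEF1 was among these 8, and the filter all but fixed its direction here too.

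**Figure D1:**
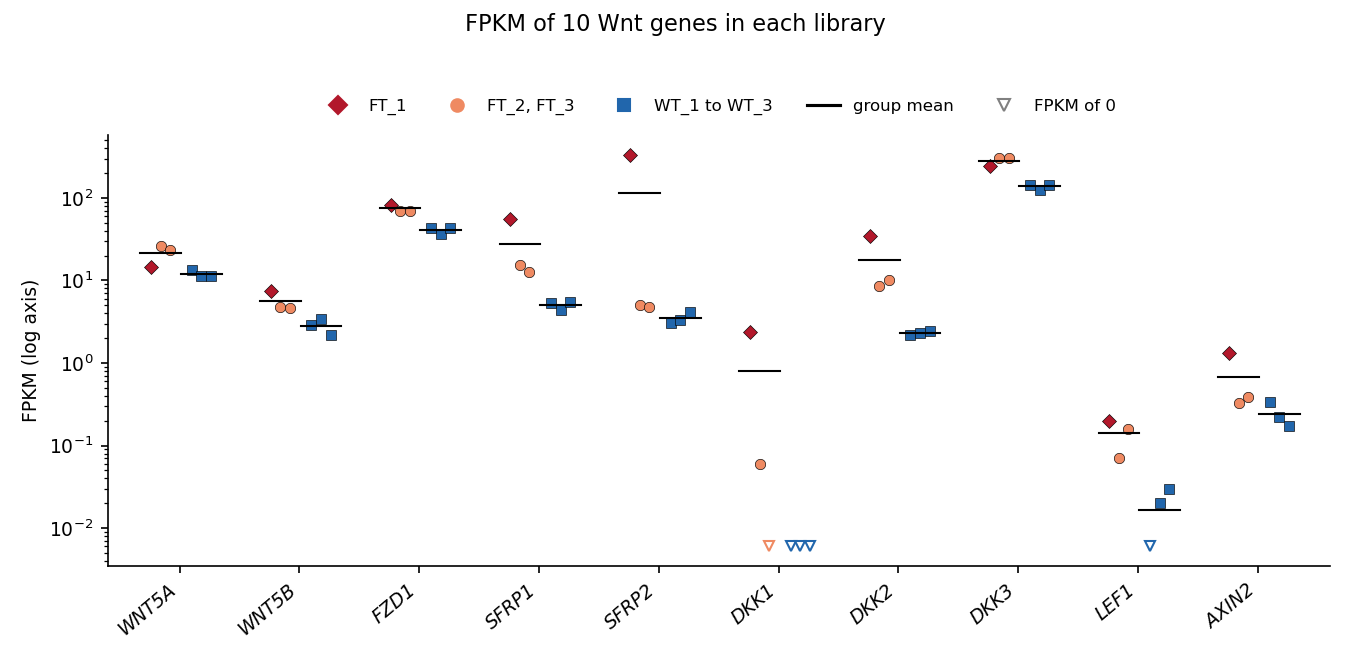
FPKM (log axis) of the 10 Wnt genes, ordered by role, in FT_1 (diamonds), FT_2 and FT_3 (circles) and the WT libraries (squares), with group means as lines and values of 0 as open triangles. DKK3 and FZD1 have the highest WT values, and SFRP2 is at 332 in FT_1 but at 5.0 and 4.8 in the other FT libraries.

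WNT5A, a ligand known mainly for the branches that act on cell polarity and calcium (ENSBTAG00000020221, chr22:45541328-45558117, + strand), had an FPKM of 14.8, 25.9 and 23.3 in FT_1 to FT_3, against 13.5, 11.4 and 11.4 in WT_1 to WT_3. Its counts were 1970, 2623 and 2662 in FT cells and 1969, 1225 and 1296 in WT cells. FT_1 was the lowest of the FT libraries and close to WT_1, but the groups did not overlap in FPKM. The FT mean was 21.3 ± 5.84 (SD, n = 3) and the WT mean 12.1 ± 1.2, and WNT5A rose by 0.98 in log2 units (standard error 0.228, edgeR adjusted p = 0.0187). Without FT_1 the log2 fold change was 1.19 (standard error 0.0983, edgeR adjusted p = 5.28e-06). The call with FT_1 in the fit was lost when any one of the other 5 libraries was left out, with edgeR adjusted p from 0.0536 without FT_2 to 0.0787 without WT_2.

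WNT5B, the closest relative of WNT5A among the ligands (ENSBTAG00000054367, chr5:108138474-108154024, + strand), had an FPKM of 7.5, 4.75 and 4.67 in FT_1 to FT_3, against 2.90, 3.41 and 2.16 in WT_1 to WT_3. All FT values lay above all WT values, and FT_1 was the highest library for WNT5B although it was the lowest FT library for WNT5A. WNT5B rose by 1.15 in log2 units (standard error 0.248, edgeR adjusted p = 0.0143), and by 0.91 without FT_1 (standard error 0.161, edgeR adjusted p = 7.83e-04). Without WT_1 the edgeR adjusted p was 0.0587, within a range of 1.70e-04 to 0.0587 over the alternatives. The ratio of WNT5A FPKM to WNT5B FPKM was 1.97, 5.45 and 4.996 in FT_1 to FT_3, and 4.65, 3.34 and 5.28 in WT_1 to WT_3. The ratio in FT_1 was thus below those of the other 5 libraries, while FT_2 and FT_3 were close to WT_1 and WT_3.

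The list of Wnt ligands held 19 genes, of which 14 were in the table and 8 were tested. WNT5A was the most abundant ligand in every library, and its share of the summed ligand FPKM was 42.4%, 73.7% and 70.7% in FT_1 to FT_3, against 66.8–68.6% in the WT libraries. The summed ligand FPKM was 34.8, 35.1 and 33.0 in FT_1 to FT_3, against 19.65, 17.04 and 16.95 in WT_1 to WT_3. With edgeR 3 ligands (37.5%) were called higher and 0 lower, beside 20.1% and 18.9% of all genes, and the median log2 fold change of the 8 was 0.92, beside 0.03. WNT5A and WNT5B, already counted among the genes chosen by name, were among those called here and without FT_1. Of the tested ligands not chosen by name, WNT2 alone was called with all 6 libraries. Without FT_1, 5 of 9 were called higher and 0 lower, beside 30.6% and 31.5%, with a median of 0.91. WNT4, named after its values were seen, was among the 5. It reached the level of the filter on low counts in FT libraries only, so that it could hardly have been called lower. Of the 8 ligands that reached this level in both groups, 4 were called higher, beside 31% of all such genes. Without WT_1 0 ligands were called, without WT_2 1 and without WT_3 2, all higher, beside 11%, 11.6% and 13% of all genes called higher. No ligand was lower at an unadjusted p under 0.05 either, nor with DESeq2 or limma. The third ligand called higher was WNT2, a gene of mesenchymal tissues, at 5.87, 2.26 and 2.22 FPKM in FT_1 to FT_3 against 0.73–1.21 in the WT libraries (log2 fold change 1.93, standard error 0.454, edgeR adjusted p = 0.0194; 1.32 without FT_1, edgeR adjusted p = 5.92e-04). Its call was lost without WT_1, WT_2 or WT_3, with edgeR adjusted p of 0.0603 to 0.0794. WNT7B, named after its values were seen, is a ligand of epithelia and had 916 counts (3.51 FPKM) in FT_1 and 0 in the other 5 libraries, which made up 10.1% of the summed ligand FPKM in FT_1.

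FZD1, a Frizzled receptor that binds Wnt ligands (ENSBTAG00000002107, chr4:8665915-8670064, + strand), had an FPKM of 83.2, 70.4 and 70.5 in FT_1 to FT_3, against 43.6, 36.2 and 42.9 in WT_1 to WT_3. The 3 FT libraries lay close together, FT_1 included, and well above the WT libraries. The FT mean was 74.7 ± 7.37 (SD, n = 3) and the WT mean 40.9 ± 4.09, for a log2 fold change of 1.03 (standard error 0.113, edgeR adjusted p = 0.00172). It was 0.95 without FT_1 (standard error 0.0843, edgeR adjusted p = 8.11e-06), and the call held with each library left out in turn. FZD1 was the most abundant of the 10 frizzled genes in every library and took 64.4%, 76.4% and 76.5% of their summed FPKM in FT_1 to FT_3, against 53.3–55.6% in WT cells.

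The list of receptors and co-receptors had 15 genes in the table, and of the 14 tested 2 rose and 2 fell (14.3% each, below the 20.1% and 18.9% of all genes), with a median log2 fold change of 0.74. Without FT_1, 6 rose and 3 fell, beside 30.6% and 31.5% of all genes, with a median of 0.47. Without WT_1, WT_2 or WT_3 the counts stayed at 2 and 2, beside 11–13% and 11.1–12.6%. LRP6, the co-receptor of the canonical branch, was at 5.51, 5.88 and 6.06 FPKM in FT_1 to FT_3 and at 3.69, 3.65 and 4.53 in WT_1 to WT_3, and it rose by 0.72 in log2 units (standard error 0.118, edgeR adjusted p = 0.00586; 0.76 without FT_1). FZD8, another Frizzled receptor, fell, with 3.16, 1.36 and 1.83 FPKM in FT_1 to FT_3 against 10.1, 8.85 and 8.90 in WT_1 to WT_3 (log2 fold change -1.97, standard error 0.312, edgeR adjusted p = 0.00505; -2.36 without FT_1). FZD3, a receptor known from axon guidance, fell by 0.86 in log2 units (standard error 0.145, edgeR adjusted p = 0.00641; log2 fold change -0.86 without FT_1). The frizzled genes thus went both ways, and with all 6 libraries edgeR called FZD1 alone of them higher. Without FT_1, FZD10, named after its values were seen, was called higher too (log2 fold change 2.73, edgeR adjusted p = 1.17e-06), with 0.39, 4.39 and 3.94 FPKM in FT_1 to FT_3 against 0.62–0.77 in the WT libraries.

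**Figure D2:**
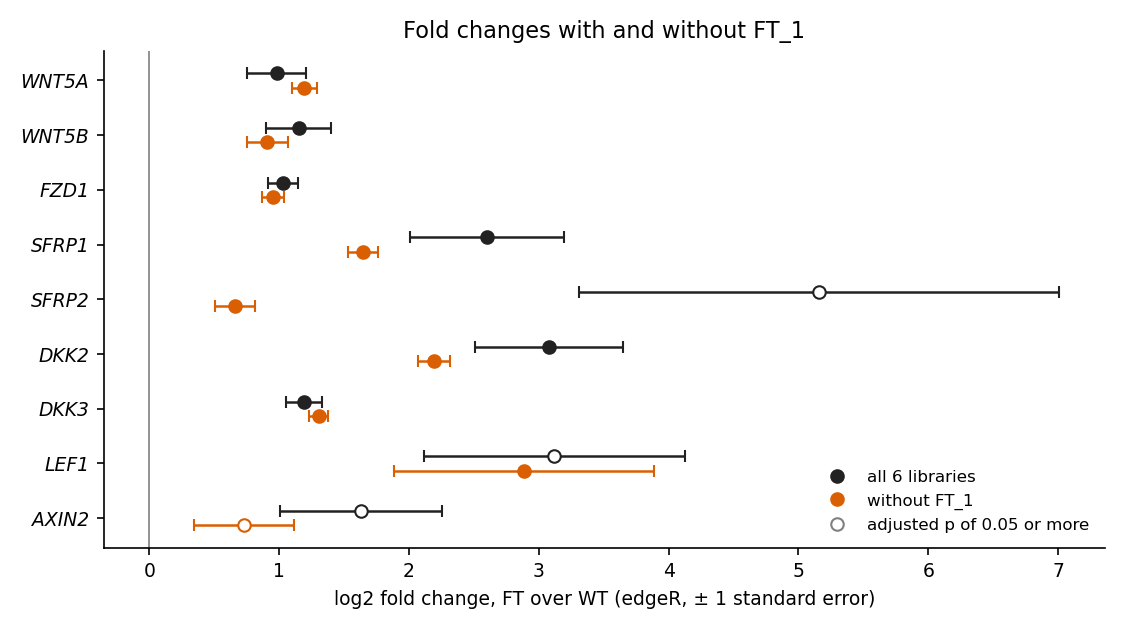
Log2 fold changes of FT over WT cells from edgeR, with 1 standard error to each side, for the 9 Wnt genes tested, with all 6 libraries (black) and without FT_1 (orange). Open points have an adjusted p of 0.05 or more, and SFRP2 moves from 5.16 to 0.66 when FT_1 is left out.

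SFRP1, a secreted protein that binds Wnt ligands (ENSBTAG00000027625, chr27:36211720-36255293, − strand), had an FPKM of 55.2, 15.6 and 12.8 in FT_1 to FT_3, against 5.36, 4.37 and 5.53 in WT_1 to WT_3. FT_1 was 3.89 times the mean of FT_2 and FT_3, and these 2 libraries were still 2.79 times the WT mean. SFRP1 rose by 2.60 in log2 units (standard error 0.591, edgeR adjusted p = 0.0173), and by 1.65 without FT_1 (standard error 0.118, edgeR adjusted p = 2.21e-06). With FT_1 kept, the call was lost without WT_1, WT_2 or WT_3, with edgeR adjusted p of 0.0703, 0.0780 and 0.0655.

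SFRP2, of the same family (ENSBTAG00000018563, chr17:3834470-3843041, + strand), had an FPKM of 332, 5.0 and 4.8 in FT_1 to FT_3, against 3.02, 3.30 and 4.15 in WT_1 to WT_3. Its counts were 43283, 495 and 535 in FT_1 to FT_3, and 432, 347 and 461 in the WT libraries. FT_1 was 67.7 times the mean of the other FT libraries, so the group mean stands for none of the 3 libraries, and FT_2 and FT_3 lay just above the highest WT library. The log2 fold change was 5.16 (standard error 1.85, edgeR adjusted p = 0.0709) and SFRP2 did not pass the test with all 6 libraries. Without FT_1 it was 0.66 (standard error 0.154, edgeR adjusted p = 0.00408) and passed. Without FT_2 or FT_3 the log2 fold change was 5.72, with edgeR adjusted p of 0.0499 and 0.0489, within a range of 0.00408 to 0.399 over the alternatives. SFRP2 made up 82.8% of the summed FPKM of the 5 SFRP genes in FT_1 and 8.91–11.7% in the other 5 libraries, where SFRP4 had the largest share (53.6% in FT_2, 59.4% in FT_3 and 72.8–75.2% in WT cells).

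DKK1, an antagonist that binds the LRP co-receptors (ENSBTAG00000014218, chr26:6846290-6849518, − strand), had 304, 6 and 0 counts in FT_1 to FT_3 and 0 counts in every WT library, that is 2.36, 0.06 and 0 FPKM in FT cells. It was in effect a gene of FT_1, and the groups overlapped at 0. DKK1 did not pass the filter on low counts and was not tested with the others. FT_1 had 4.80 CPM (counts scaled to a common library total), at least 280-fold higher than the 3 counts that 0 of 175360309 counts in WT cells allows (0.0171 CPM). This floor covers counting error only. FT_2 and FT_3 pooled had 0.0586 CPM, or 3.43 times the floor, but this rests on the 6 counts of FT_2, which need not be separate fragments, and is no safe minimum. With no filter on low counts the edgeR adjusted p of DKK1 was 0.129, and it was 0.405 with limma on log2(FPKM + 1).

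DKK2, which also binds the LRP co-receptors (ENSBTAG00000012969, chr6:18125623-18254810, + strand), had an FPKM of 34.2, 8.66 and 10.1 in FT_1 to FT_3, against 2.19, 2.30 and 2.42 in WT_1 to WT_3. The WT libraries differed little, FT_2 and FT_3 were 4.06 times the WT mean, and FT_1 was 3.66 times the mean of FT_2 and FT_3. DKK2 rose by 3.08 in log2 units (standard error 0.572, edgeR adjusted p = 0.00874), and by 2.19 without FT_1 (standard error 0.12, edgeR adjusted p = 4.11e-07). The call held with each library left out in turn.

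DKK3, a divergent member of the Dickkopf family that is abundant in mesenchymal cells (ENSBTAG00000004275, chr15:40685311-40735279, + strand), had an FPKM of 244, 303 and 306 in FT_1 to FT_3, against 145, 126 and 145 in WT_1 to WT_3. The groups were apart, with FT_1 the lowest FT library. The FT mean was 284 ± 35.1 (SD, n = 3) and the WT mean 139 ± 11.3, for a log2 fold change of 1.19 (standard error 0.136, edgeR adjusted p = 0.00195), or 1.304 without FT_1 (standard error 0.0756, edgeR adjusted p = 5.74e-07). DKK3 was the most abundant of the 10 Wnt genes in 5 of the 6 libraries, all but FT_1, where SFRP2 was higher, and its median percentile among all genes was 98.9 for FT and 97.3 for WT libraries. It held 86.9% of the summed FPKM of the 3 DKK genes in FT_1 and 96.8–98.5% in the other libraries.

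The 5 antagonists summed to 667, 332 and 333 FPKM in FT_1 to FT_3, against 156, 136 and 157 in WT_1 to WT_3. SFRP2 gave the largest part of the sum in FT_1 and DKK3 in the other 5 libraries, so that similar sums in FT_2 and FT_3 were mostly DKK3. SFRP1, SFRP2, DKK1 and DKK2 were highest in FT_1, the library with the epithelial markers at 457 FPKM, and the part of those markers in this excess was not tested. FT_2 and FT_3 were above all WT libraries for SFRP1, SFRP2, DKK2 and DKK3.

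**Figure D3:**
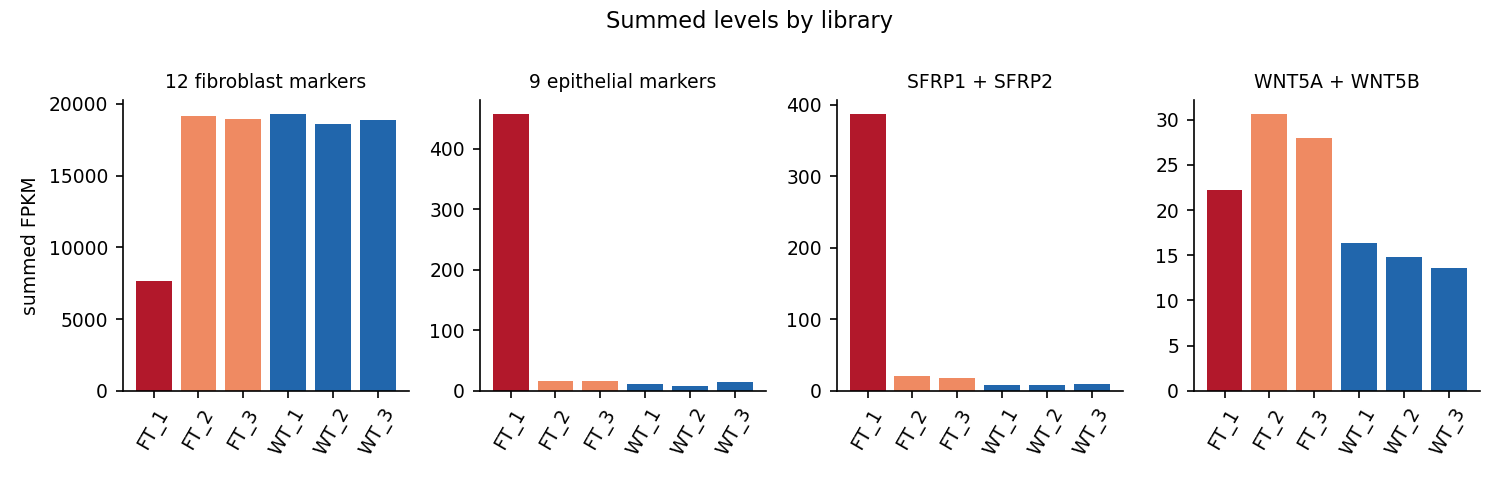
Summed FPKM in each library for 12 fibroblast markers, 9 epithelial markers, SFRP1 with SFRP2, and WNT5A with WNT5B (FT_1 dark red, FT_2 and FT_3 light red, WT libraries blue). FT_1 has the lowest fibroblast sum (7680) and the highest epithelial (457) and SFRP sums (387), while the WNT5 sums of FT_2 (30.7) and FT_3 (28.0) exceed that of FT_1 (22.3).

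The list of secreted and membrane antagonists had 18 genes in the table. Of the 12 tested 5 (41.7%) rose and 0 fell, beside 20.1% and 18.9% of all genes, with a median log2 fold change of 1.43, and 0 were lower at an unadjusted p under 0.05 in edgeR or with DESeq2 or limma. SFRP1, DKK2 and DKK3, already counted among the genes chosen by name, were among the 5, and the others were KREMEN1 and IGFBP4. Without FT_1, 8 rose and 0 fell, beside 30.6% and 31.5% of all genes, with a median of 1.24. These 8 included SFRP1, SFRP2, DKK2 and DKK3. Without WT_1, WT_2 or WT_3 the number that rose was 3 each time, beside 11%, 11.6% and 13%. KREMEN1, a membrane receptor for DKK proteins, was at 20.2, 22.0 and 22.2 FPKM in FT_1 to FT_3 and at 11.2, 8.83 and 12.8 in WT_1 to WT_3 (log2 fold change 1.13, standard error 0.151, edgeR adjusted p = 0.00299; 1.18 without FT_1). IGFBP4, a binding protein of insulin-like growth factors that also inhibits Wnt signaling, was at 262, 937 and 927 FPKM in FT_1 to FT_3, against 251–286 in WT cells. FT_1 thus had the WT level of IGFBP4, and the log2 fold change was 1.58 with FT_1 (edgeR adjusted p = 0.0447) and 1.98 without it (edgeR adjusted p = 4.69e-08). With FT_1 in the fit its edgeR adjusted p was 0.116 to 0.143 without any one of the other 5 libraries. SFRP5, named after its values were seen, had 168 counts in FT_1 and 0 elsewhere.

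The list of R-spondins, their receptors and Wnt secretion had 10 genes in the table, and of the 8 tested 2 (25.0%) rose and 1 (12.5%) fell, beside 20.1% and 18.9% of all genes. The median log2 fold change was 1.92 with FT_1 and 0.86 without it, where 6 rose and 1 fell, beside 30.6% and 31.5% of all genes. Without WT_1, WT_2 or WT_3 just 1 rose, beside 11%, 11.6% and 13%, and with limma on filtered FPKM 0 rose. RSPO1, a secreted enhancer of Wnt signaling, had 126, 88 and 100 counts in FT_1 to FT_3 and 0, 0 and 4 in WT_1 to WT_3. It was thus near 0 in WT cells and at a like level in the 3 FT libraries, 0.65–0.70 FPKM (edgeR adjusted p = 0.00710). Its log2 fold change of 6.34, with or without FT_1, rests on the count of 4 in WT_3, and it was 5.71 without WT_1 and 9.83 without WT_3. No WT library reached the level of the filter, so that RSPO1 could hardly have been called lower. Of the 7 genes of the list that reached it in both groups, 1 (14.3%) rose and 1 (14.3%) fell, beside 19.9% and 18.5% of all such genes. Without FT_1, 5 of the 7 rose and 1 fell, beside 31% and 30.8%. ZNRF3, a ubiquitin ligase that removes Frizzled receptors, rose by 1.26 (standard error 0.306, edgeR adjusted p = 0.0215; 1.035 without FT_1), a call that was lost without WT_1, WT_2 or WT_3 (edgeR adjusted p of 0.0612, 0.0752 and 0.0655). LGR4, an R-spondin receptor, was at 21.9–24.8 FPKM in FT libraries against 48.1–50.5 in WT libraries and fell (log2 fold change -0.94, standard error 0.0788, edgeR adjusted p = 9.52e-04; -0.99 without FT_1).

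The list that joins the destruction complex, casein kinase 1 genes, Dishevelled and FRAT genes had 21 genes tested. Of these 11 (52.4%) rose and 3 (14.3%) fell, beside 20.1% and 18.9% of all genes, with a median log2 fold change of 0.65. The 11 were APC2, AXIN1, GSK3A, CSNK1D, CSNK1E, CSNK1G1, CSNK1G2, DVL1, DVL2, DVL3 and FRAT1. APC was not called (log2 fold change -0.27, or -0.11 without FT_1). APC, APC2, AXIN1, DVL2 and these CSNK1 genes were named after their values were seen. Without FT_1, 11 rose and 4 fell, beside 30.6% and 31.5% of all genes, with a median of 0.68. Without WT_1, WT_2 or WT_3, 9, 9 and 10 rose, beside 11%, 11.6% and 13%. The Dishevelled genes DVL1 and DVL3, whose products carry the signal from Frizzled receptors, rose by 0.98 (standard error 0.0887, edgeR adjusted p = 0.00114) and by 1.22 (standard error 0.103, edgeR adjusted p = 9.54e-04), or by 0.93 and 1.29 without FT_1. GSK3A, a kinase of the complex, rose by 0.80 (standard error 0.0720, edgeR adjusted p = 0.00114; 0.82 without FT_1). Of the 20 genes of the list that reached the level of the filter in both groups, 10 rose with all 6 libraries and 10 without FT_1, beside 19.9% and 31% of all such genes. FRAT1, whose product binds GSK3, had 48, 11 and 48 counts in FT_1 to FT_3 and 8, 9 and 2 in WT_1 to WT_3 (log2 fold change 2.65, edgeR adjusted p = 0.0383; 2.51 without FT_1), and no WT library reached the level of the filter. Its edgeR adjusted p was 0.104 without FT_3 and 0.0766 to 0.128 without 1 of the WT libraries. The genes that fell were CTNNB1, GSK3B and CSNK1A1, named after their values were seen. CTNNB1, which encodes β-catenin, was at 90.2, 69.9 and 65.2 FPKM in FT_1 to FT_3 and at 171, 170 and 178 in WT_1 to WT_3. Its groups were far apart, and its log2 fold change was -1.05 (standard error 0.132, edgeR adjusted p = 0.00255), or -1.19 without FT_1 (edgeR adjusted p = 3.86e-07). The kinase genes GSK3B (log2 fold change -0.44, or -0.47 without FT_1) and CSNK1A1 (-0.46, or -0.49) fell less.

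LEF1, a nuclear factor that binds DNA with β-catenin and is itself a target of the pathway (ENSBTAG00000006844, chr6:17083864-17200183, + strand), had 34, 10 and 24 counts in FT_1 to FT_3, against 0, 4 and 4 in WT_1 to WT_3. That is 0.20, 0.07 and 0.16 FPKM in FT cells and 0, 0.02 and 0.03 in WT cells, so that the groups did not overlap but every value was low. Counts this low need not be separate fragments, since 4 was the most frequent nonzero count in every library (486–524 genes, against 134–164 genes with a count of 3). The log2 fold change was 3.12 (standard error 1.004, edgeR adjusted p = 0.0522) and LEF1 did not pass the test. Without FT_1 it was 2.89 (standard error 1.001, edgeR adjusted p = 0.0295), a value under 0.05 of a gene whose direction the filter on low counts all but fixed, since no WT library reached its level. Over the alternatives the adjusted p ranged from 0.0266 with DESeq2 to 0.148.

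The list of TCF/LEF factors and partners had 15 genes tested, of which 8 (53.3%) rose and 0 fell, beside 20.1% and 18.9% of all genes, with a median log2 fold change of 0.81. None was lower at an unadjusted p under 0.05 in edgeR or with DESeq2 or limma, and without FT_1 10 rose and 1 fell, beside 30.6% and 31.5% of all genes, with a median of 0.80. LEF1 was among these 10, and of the 14 genes that reached the level of the filter in both groups 9 rose, beside 31% of all such genes. Without WT_1, WT_2 or WT_3, 6 rose, beside 11%, 11.6% and 13%. The β-catenin partners BCL9 and BCL9L rose by 1.46 (standard error 0.114, edgeR adjusted p = 8.27e-04) and by 1.48 (standard error 0.124, edgeR adjusted p = 9.54e-04), or by 1.555 and 1.554 without FT_1. BCL9 was at 19.96, 23.7 and 24.4 FPKM in FT_1 to FT_3 and at 8.69, 9.32 and 9.64 in WT_1 to WT_3, with FT_1 near the other FT libraries. CTBP1, a co-repressor, rose by 0.96 (standard error 0.0708, edgeR adjusted p = 7.56e-04; 0.99 without FT_1).

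AXIN2, a feedback inhibitor that is widely used as a readout of canonical signaling (ENSBTAG00000030162, chr19:62212833-62240091, − strand), had an FPKM of 1.32, 0.33 and 0.39 in FT_1 to FT_3, against 0.34, 0.22 and 0.17 in WT_1 to WT_3. Its counts were 338, 65 and 85 in FT cells and 95, 46 and 37 in WT cells. FT_1 was high, and WT_1 lay between FT_2 and FT_3, so that the groups overlapped. The log2 fold change was 1.63 (standard error 0.625, edgeR adjusted p = 0.0857), or 0.73 without FT_1 (standard error 0.384, edgeR adjusted p = 0.125), and AXIN2 did not pass the test in either case. Only DESeq2, with an adjusted p of 0.0347, placed it under 0.05, within a range of 0.0347 to 0.260 over the alternatives.

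**Figure D4:**
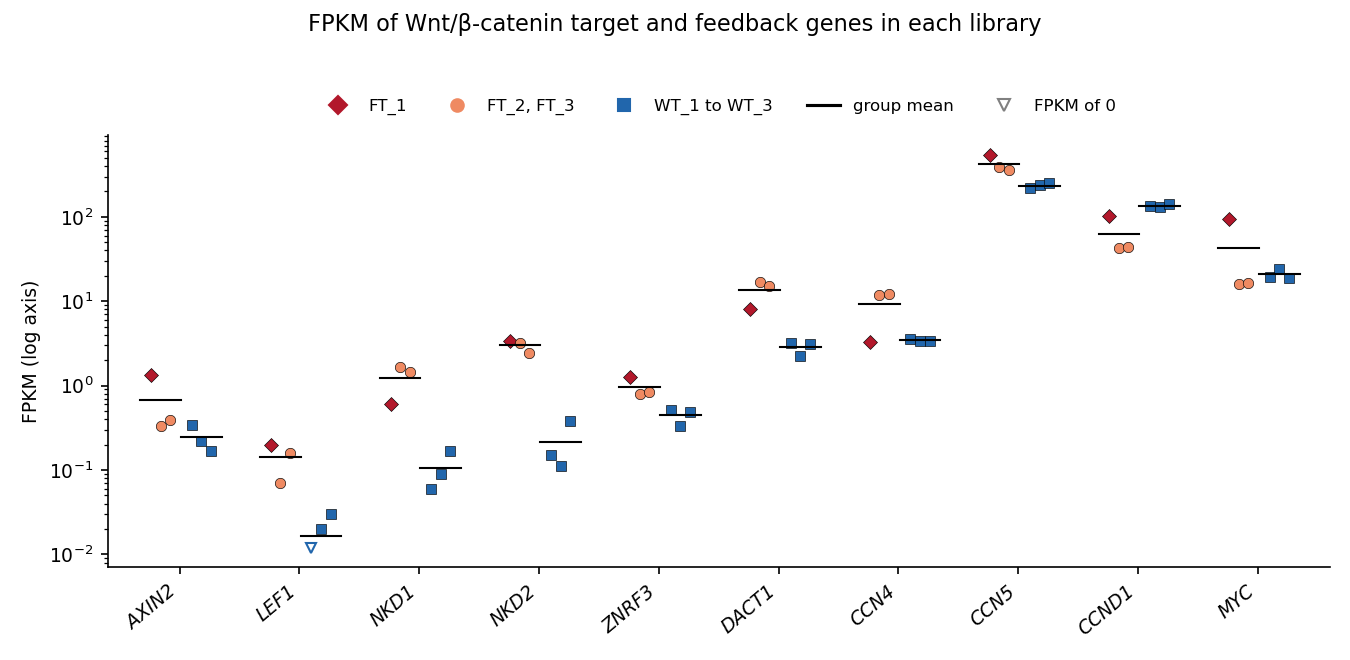
FPKM (log axis) of AXIN2, LEF1 and 8 further target and feedback genes, chosen after their values were seen, in FT_1 (diamonds), FT_2 and FT_3 (circles) and WT libraries (squares), with group means as lines and an open triangle for 0. NKD1, NKD2 and DACT1 lie higher in all FT libraries, CCND1 lies lower, and MYC is high in FT_1 alone (95.5). FOSL1, TCF7 and CD44, called lower without FT_1, are not shown.

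The list of target and feedback genes had 25 genes in the table and 22 tested, of which 6 (27.3%) rose and 0 fell with edgeR, beside 20.1% and 18.9% of all genes. The median log2 fold change was 1.33 with FT_1 and 0.62 without it. At an unadjusted p under 0.05 edgeR had 2 of them lower, as had DESeq2 and limma at an adjusted p under 0.05, and without FT_1 10 rose and 4 fell, beside 30.6% and 31.5% of all genes. LEF1 was among these 10, and of the 21 genes that reached the level of the filter in both groups 9 rose, beside 31% of all such genes. Without WT_1, WT_2 or WT_3, 4 rose, beside 11%, 11.6% and 13%. NKD2, an inhibitor that binds Dishevelled, was at 3.40, 3.23 and 2.43 FPKM in FT_1 to FT_3 and at 0.15, 0.11 and 0.38 in WT_1 to WT_3 (log2 fold change 3.91, standard error 0.506, edgeR adjusted p = 0.00274; 3.83 without FT_1). NKD1, its paralog, was at 0.61, 1.64 and 1.43 FPKM against 0.06, 0.09 and 0.17 (log2 fold change 3.69, standard error 0.596, edgeR adjusted p = 0.00542; 4.04 without FT_1). Both had no overlap between groups, with FT_1 the highest FT library for NKD2 and the lowest for NKD1. DACT1, another partner of Dishevelled, was at 8.04, 17.1 and 15.1 FPKM against 3.19, 2.27 and 3.10 (log2 fold change 2.39, standard error 0.326, edgeR adjusted p = 0.00317; 2.66 without FT_1). CCND1, a cyclin gene named after its values were seen, was at 101, 42.7 and 43.8 FPKM in FT_1 to FT_3 and at 133, 131 and 141 in WT_1 to WT_3. It was lower in all FT libraries but did not pass the test with FT_1 (log2 fold change -0.96, edgeR adjusted p = 0.0707), and passed without it (-1.47, edgeR adjusted p = 1.87e-07). FOSL1, TCF7 and CD44, named in the same way, were the others called lower without FT_1. FOSL1 was at 29.95, 9.57 and 11.7 FPKM in FT_1 to FT_3 and at 46.6, 49.1 and 39.2 in WT_1 to WT_3. Log2 fold changes with and without FT_1 were -1.24 and -1.905 for FOSL1, -0.31 and -0.98 for TCF7, and -0.05 and -0.36 for CD44. MYC, named in the same way, was at 95.5, 16.1 and 16.3 FPKM in FT_1 to FT_3 against 18.9–23.9 in WT cells, so that its log2 fold change was 1.18 with FT_1 and -0.19 without it (edgeR adjusted p = 0.243 and 0.143).

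The branch that acts on cell polarity and calcium had 28 genes tested, of which 5 (17.9%) rose and 4 (14.3%) fell, below the 20.1% and 18.9% of all genes, with a median log2 fold change of 0.01, beside 0.03. Without FT_1, 8 rose and 6 fell, below the 30.6% and 31.5% of all genes, with a median of 0.01, beside -0.02. Without WT_1, WT_2 and WT_3, 2, 3 and 3 rose, beside 11%, 11.6% and 13% of all genes, and 1, 3 and 2 fell, beside 11.1%, 11.3% and 12.6%. DACT1 was among those that rose, as was SCRIB, a polarity gene (0.94, standard error 0.0873, edgeR adjusted p = 0.00119; 0.93 without FT_1). NFATC2, a calcium-dependent transcription factor, rose by 2.52 (edgeR adjusted p = 0.0116, or 0.0596 without WT_1; log2 fold change 2.35 without FT_1) from 0.04–0.13 FPKM in WT cells to 0.32–0.53 in FT cells. CELSR2, a polarity cadherin, was at 0.91, 0.17 and 0.10 FPKM in FT_1 to FT_3 against 0.02–0.04 in WT cells (log2 fold change 3.96, edgeR adjusted p = 0.0210; 2.46 without FT_1, edgeR adjusted p = 0.00138). Its call was lost without WT_1, WT_2 or WT_3 (edgeR adjusted p of 0.0703 to 0.0880). PPP3R1, a calcineurin subunit, fell by 0.74 in log2 units (standard error 0.144, edgeR adjusted p = 0.0104; log2 fold change -0.89 without FT_1).

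**Figure D5:**
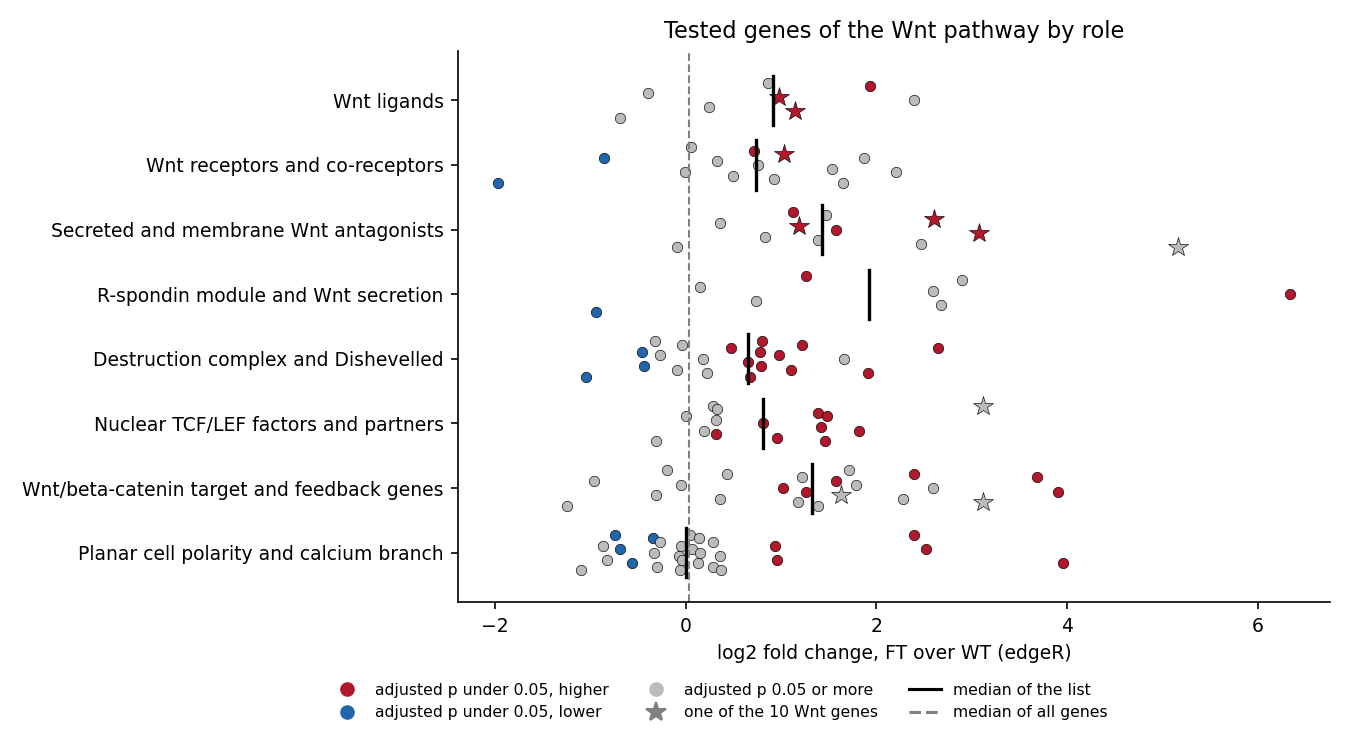
Log2 fold changes of FT over WT cells (edgeR) for the tested genes of 8 lists of Wnt pathway roles, colored by call, with stars for the Wnt genes chosen by name, a bar at each list median and a dashed line at the median of all genes (0.03). With all 6 libraries the list medians run from 0.01 in the polarity and calcium branch to 1.92 in the R-spondin list, whose median is 0.86 without FT_1, where the antagonists have the highest (1.24).

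Over all 8 lists together, 141 genes were in the table and 121 were tested, of which 40 (33.1%) rose and 10 (8.26%) fell, with a median log2 fold change of 0.72. Without the 10 genes chosen by name the numbers were 34 (30.4%) and 10 (8.93%) of 112, with a median of 0.46, beside 20.1%, 18.9% and 0.03 for all genes. Without FT_1, 60 of 122 rose and 18 fell, with a median of 0.43, beside 30.6% and 31.5% of all genes. Some of those that rose reached the level of the filter on low counts in FT libraries only. Of the genes that reached it in both groups, 38 of 118 (32.2%) rose with all 6 libraries, beside 19.9% of all such genes. Without FT_1 it was 56 of 117 (47.9%), beside 31%. Without WT_1, 26 rose and 7 fell, beside 11% and 11.1% of all genes. The genes of these lists named here as having risen or fallen with all 6 libraries were also called, in the same direction, without FT_1.

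In WT cells the order of mean FPKM was DKK3 (139), FZD1 (40.9), WNT5A (12.1), SFRP1 (5.09), SFRP2 (3.49), WNT5B (2.82), DKK2 (2.30), AXIN2 (0.243), LEF1 (0.0167) and DKK1 (0). The ranges of neighbors in this order did not overlap, except those of SFRP2 and WNT5B, WNT5B and DKK2, and LEF1 and DKK1. In FT cells DKK3, SFRP2 and FZD1 led the order, but the range of SFRP2 overlapped both, and the ranges of SFRP1, WNT5A and DKK2 overlapped as well. DKK2 thus stood below WNT5B in mean level in WT cells and above it in every FT library.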

How the data were processed

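The authors sequenced paired-end poly(A) libraries from 3 FT and 3 WT fetuses and deposited 1 table that gives raw counts and FPKM values per gene and library. Per their methods, reads were mapped with HISAT and expression was estimated with StringTie and edgeR. The submitters' processing notes name HISAT2 2.0, StringTie 1.3.0, Bowtie 0.12.2 and mm8, a mouse build, whereas the table holds cattle genes, so the build of its coordinates is not stated. How reads of overlapping genes or of opposite strands were assigned is not given in the sources used here. The methods and the sample records name different sequencers and RNA amounts. The table covered chromosomes 1 to 29. The transgene and genes of the sex chromosomes were not analysed here.

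Counts were tested with edgeR 4.0.16 in R 4.3.3 (filterByExpr, TMM scaling, glmQLFit and glmQLFTest, two-sided), with Benjamini-Hochberg adjustment over all genes tested. FPKM values were used as deposited for levels, shares and overlap. Alternatives were DESeq2 1.42.0, limma 3.58.1 on log2(FPKM + 1) or log2(FPKM + 0.1) filtered at a mean FPKM of 0.5 or unfiltered, RLE scaling, library totals only, no filter on counts, the threshold of the methods, a replicate block and leaving out each library. An exact permutation test of 3 against 3 libraries cannot give a p under 0.10. The floor for a count of 0 was 3 counts over the group. The edgeR, DESeq2 and limma fits were also run on simulated counts whose spread was taken from the WT libraries. These counts held no library that stood apart as FT_1 does, so they do not show how the fits do with FT_1 included.

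The 10 Wnt genes, the 8 lists of pathway roles and the 10 lists of cell type markers were chosen with earlier results of these data known. Further genes named are, per role list, up to 3 with the smallest edgeR p among those called, and those with no overlap between groups and an absolute log2 fold change over 2; per marker list, the most abundant gene and those at 0. Listed symbols that did not match the table were not analysed here.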

Additional observations from a re-analysis of the deposited data

How the results depend on the processing

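No fold change of the Wnt genes or of the other genes named by rule from the pathway lists changed sign under any alternative. Of the most abundant gene of each marker list, added to these comparisons after seeing the data, ERG (1.22, not called) reversed, with -1.10 without FT_1 (called lower, edgeR adjusted p = 0.00747) and up to 1.71 without FT_2, and S100B (-0.16, not called) went to 0.004 without FT_2 and 0.12 without FT_3. FABP4 was no longer called without FT_2 or without any one of the WT libraries (edgeR adjusted p of 0.0536 to 0.0594), and over these marker genes 130 values kept their side of the threshold, 13 passed it in the same direction only under the alternative and 4 no longer did. Genes named outside the rule were compared only with and without FT_1. MYC (1.18 and -0.19), SFRP4 (-0.09 and 0.18), CDH1 (0.85 and -0.28), UPK3B (0.94 and -1.06) and LPL (-0.23 and 0.23) reversed there without being called in either fit. For the 9 tested Wnt genes, 110 values kept their side of the threshold, 9 passed it only under the alternative and 11 no longer did. Of the other genes named from the pathway lists 295 values kept their side and 42 no longer passed. The calls of FZD1, DKK2 and DKK3 held under all alternatives with an adjusted p.

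The replicate numbers come from the sample names and belong to different fetuses. Deviations from the group means correlated by -0.001, -0.02 and 0.018 between libraries of the same number (13482 genes), so the libraries were not treated as paired. With the replicate number as a block, edgeR called 1838 genes higher and 1741 lower, and WNT5A had a log2 fold change of 0.94 (edgeR adjusted p = 0.0662), the only Wnt gene whose call changed under the block.

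Leaving out 1 library gave 1516–4215 genes called higher and 1531–4337 lower in the whole table, 26–60 higher and 7–18 lower in the Wnt lists, and 3–8 of the Wnt genes higher. Log2 fold changes then ran from 0.82 to 1.19 for WNT5A, 0.91 to 1.31 for WNT5B, 1.65 to 2.93 for SFRP1, 0.66 to 5.72 for SFRP2 and 2.49 to 3.57 for LEF1. All these fits have fewer samples.

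An unadjusted p under 0.05 with an absolute log2 fold change over 1 gave 1378 genes higher and 1208 lower, and 33 higher and 3 lower in the Wnt lists. Under it WNT5A (0.98) no longer passed, and SFRP2 (5.16), AXIN2 (1.63) and LEF1 (3.12) passed, as the rule's construction sets. With DESeq2, AXIN2 (1.63, adjusted p = 0.0347) and LEF1 (3.16, adjusted p = 0.0266) passed, and SFRP2 and DKK1 had no adjusted p. Limma on FPKM called 30, 30 and 32 genes of the Wnt lists higher and 16 lower with a pseudocount of 1, with 0.1 and without the filter, beside 1837, 1880 and 1744 genes of the whole table higher and 3573, 3529 and 3622 lower. The cause was not tested. AXIN2 and LEF1 were below the mean FPKM filter and have no value in the filtered limma fits.

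With library totals only, the median log2 fold change of all genes was -0.12, a shift of -0.15 from 0.03, and 37.6% of called genes were higher, against 51.6% with TMM. Changes are best read relative to that median. Counts were few for LEF1, and for DKK1 outside FT_1, and the effect of depth on these genes was not tested.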

Other observations

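The other lists of cell type markers had low sums. Endothelial markers, led by ERG, summed to 7.24, 0.98 and 1.14 FPKM in FT_1 to FT_3 against 1.99–2.93 in WT cells, with CLDN5 at 0 in all WT libraries. ERG alone was at 6.03 in FT_1, while PECAM1, VWF and KDR had all their FT values below all their WT values. Blood cell markers, led by CD14, summed to 3.56–4.12 FPKM in FT cells and 6.74–7.97 in WT cells, where HBA was at 0. Skeletal muscle markers, led by DES in FT cells and by MYF5 in WT cells, summed to 3.78–5.84 FPKM in FT cells and 1.32–2.08 in WT cells, where ACTC1 was at 0. DES, also in the smooth muscle list, was at 3.17–5.74 in FT cells and 0–0.07 in WT cells, whereas MYF5 was at 0.03–0.61 against 1.06–1.93 and MYH3 fell (log2 fold change -4.01, edgeR adjusted p = 0.0461). MYH3 had 0, 4 and 0 counts in FT_1 to FT_3 and 31, 14 and 41 in WT_1 to WT_3. It passed the filter on low counts through the WT libraries, so that it could hardly have been called higher. Cartilage and bone markers, led by RUNX2, summed to 19.1, 9.50 and 10.1 FPKM in FT_1 to FT_3 against 6.12–6.85 in WT cells, where COL2A1 was at 0. RUNX2 made up most of each sum, and ACAN, a cartilage gene, fell (0.03–0.19 FPKM against 0.56–0.71; log2 fold change -2.26, edgeR adjusted p = 0.0395). Neural and Schwann markers, led by S100B, summed to 15.0, 7.06 and 5.83 FPKM in FT_1 to FT_3 against 11.9–13.2 in WT cells, where ELAVL3 was at 0. PECAM1, VWF, KDR, MYF5, MYH3 and ACAN were named after their values were seen.

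Some further genes of the Wnt lists, named after their values were seen, set FT_1 apart from FT_2 and FT_3 in the direction opposite to SFRP2. RSPO3, a secreted enhancer of Wnt signaling, was at 4.4, 63.5 and 59.9 FPKM in FT_1 to FT_3 against 41.9–44.6 in WT cells. RSPO2, of the same family, was at 0.65, 7.26 and 7.97 FPKM in FT_1 to FT_3 against 0.68–1.34 in WT cells. PTK7, a co-receptor of the polarity branch, was at 30.2, 98.4 and 98.8 FPKM in FT_1 to FT_3 against 43.0–46.1 in WT cells. FT_1 was at or below the WT level for these genes, and FT_2 and FT_3 were above it. None of them passed the edgeR test with all 6 libraries, and all of them passed without FT_1, with log2 fold changes of 0.68 for RSPO3, 3.21 for RSPO2 and 1.32 for PTK7.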
